A study of Mus musculus with 2 samples.

Results

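The cells described here were primary chondrocytes from mouse rib cartilage with a high summed level of Prg4, Clu, Cilp2, Tll1 and Scara3. They were chosen by those 5 genes. In the primary library, barcodes had to have 500 genes or more, 5000 or more unique molecular identifiers (UMIs, which count captured transcripts), no more than 10% mitochondrial UMIs and less than 0.3% of UMIs from Col1a1. The UMIs of the 5 genes were summed and divided by the UMIs of the barcode, and the top 10% of barcodes by this score were the members. This gave 1083 members of 10829 kept primary cells, or 9.10% of the 11896 deposited primary barcodes, and the other 9746 kept cells served as the comparison. The series held 22694 barcodes in all.

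Costal-cartilage-derived stem cells (CDSCs) were obtained by collagenase digestion of rib cartilage from C57BL/6J pups within a week after birth, carrying either CD45.1 or ZsGreen, and were sorted as CD45- CD51+ cells. CD45 marks blood cells and CD51 is an integrin. One library held primary CDSCs, and the other held CDSCs expanded in culture to passages 2 to 3. In the labels the tissue of both libraries is bone marrow, and the number of pooled pups was not given. The study examined how these cells differ before and after culture, and the members lie wholly within the primary library. With 1 library per condition there were no replicates, cells are not replicates, and the members were chosen on the measured counts, so every value below is a description without a test. The 95% intervals are exact for counting error and cover no other error.

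Prg4 encodes lubricin, the glycoprotein that lubricates the surface of joint cartilage and is made by superficial zone chondrocytes and by cells of the synovial lining. Clu encodes clusterin, a secreted chaperone also made by cartilage cells. Cilp2 is a cartilage matrix protein related to cartilage intermediate layer protein, Tll1 is a tolloid-like metalloproteinase of the family that cleaves procollagens and the BMP antagonist chordin, and Scara3 is a scavenger receptor linked to oxidative stress. Rib cartilage is a hyaline cartilage in which chondrocytes embedded in collagen II and aggrecan are covered by a fibrous perichondrium.

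The deposited primary library held 137359014 UMIs. Members had a median of 7516 UMIs (5003 to 42967) and 2659 genes, while the other cells had a median of 10873 UMIs (5000 to 81330) and 3061 genes. Members were therefore the shallower cells. Mitochondrial UMIs made up a median of 1.90% in members and 1.81% in the others, and ribosomal protein genes 16.4% and 17.6%. Of all barcodes, 32 were shared between the primary and the cultured library, and 2 of these were members. The doublet caller Scrublet marked 0 barcodes and had not worked, so the barcodes of highest doublet score were left out only as an alternative; these held 4.34% of members and 11.7% of the other cells. The transgene ZsGreen stood at 378.5 CPM (UMIs of a gene per 1000000 UMIs; 366.2 to 391.1) in members and 451.5 CPM in the others, and the part of the animals' origin in any result was not tested.

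The chondrocyte label was checked against cartilage genes. Col2a1, the main collagen of cartilage, had a UMI in 100% of members at an equal depth of 5000 UMIs per cell, and Acan, the core protein of aggrecan, in 95.8%. Free RNA could add to these shares. Col2a1 also had a UMI in all 16 barcodes with at least 20 UMIs of an endothelial list, at 26780 CPM against 29614 CPM in members. Acan had a UMI in 50% of those 16 barcodes at 998.5 CPM, near the 954.8 CPM of members. Whether the cartilage RNA in these 16 barcodes is free RNA or comes from doublets with chondrocytes was not tested. Of the 20 cartilage core genes in the files, all but Matn1 (6.23 CPM) exceeded 10 CPM in members. Members had between 3525 and 5471 CPM of Col9a1, Col9a2, Col9a3, Col11a1 and Comp. Genes of endothelial, haematopoietic, erythroid and Schwann cells were near 0 in members, with summed levels of 6.76, 9.92, 2.22 and 3.80 CPM.

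The score genes themselves differed in weight. Clu had the highest level in members, 4274 CPM (4232 to 4316) against 289 CPM in the other cells. Prg4 stood at 545.5 CPM (530.7 to 560.6) against 50.6 CPM. Scara3 had 536 CPM against 85.1 CPM. Clu alone gave 74.7% of the score UMIs of members and led the other 4 genes in 1039 of the 1083 members, whereas Prg4 led in 42, Tll1 in 2, and Cilp2 and Scara3 in 0. Cilp2 reached 276 CPM in members and 30.2 CPM in the others, and Tll1 89.2 CPM and 5.69 CPM. These differences are what the rule selected. Members, 10% of the cells, held 53.1% of all Clu UMIs, 54.6% of Tll1, 45.2% of Prg4, 41.2% of Cilp2 and 32.5% of Scara3.

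The cells varied widely within the members. Per 10000 UMIs, Clu ranged from 3.01 to 220.2 with a median of 38.9. Prg4 ranged from 0 to 94.4 with a median of 1.97. The medians of Scara3 and Cilp2 were 5.02 and 1.85, and that of Tll1 was 0 with a highest value of 49.0. Each range overlapped that of the other cells, in which Clu reached 30.5 and Prg4 reached 21.5 per 10000 UMIs. At 5000 UMIs per cell, Prg4 had a UMI in 60.1% of members, 15.1% of the other cells and 1 of the 16 endothelial barcodes (6.25%). The corresponding shares for Clu were 100%, 42.8% and 12.5%, and for Scara3 90.6%, 29.6% and 12.5%. For Cilp2 they were 62.1%, 12.5% and 6.25%, and for Tll1 16.4%, 1.58% and 0%. Median depths were 7516, 10873 and 13220 UMIs before thinning, where Prg4 was found in 67.8% of members, 25.7% of the others and 18.8% of the endothelial barcodes. The 16 endothelial barcodes are few, with an upper limit of 30.2% for Prg4, so the Prg4 share of the other cells could not be told from background. Whether some of these 16 are doublets with chondrocytes was not tested, so they are an uncertain measure of background. In summed counts, Prg4 stood at 12.2 CPM (2.51 to 35.6) in the endothelial barcodes, below the 50.6 CPM (49.4 to 51.9) of the other cells.

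Most members carried several of the 5 transcripts. At 5000 UMIs, 39.4% of members had UMIs of 3 of the genes, 35.7% of 4 and 6.65% of all 5, whereas 1.57% had 1. Of the other cells, 40.9% had none and 0.195% had all 5. Over the 10829 kept cells at 5000 UMIs, the correlation of log-scaled levels was highest for Scara3 with Clu (Pearson r = 0.61), followed by Cilp2 with Clu (0.50) and Clu with Prg4 (0.41), and lowest for Tll1 with Cilp2 (0.15). These points share 1 library, and r is a description only. Scara3 (GRCm38 chr14:65919394-65953935, minus strand) and Clu (chr14:65968483-65981547, plus strand) are neighbouring protein-coding genes. Cilp2 (chr8:69880369-69887687) and Tll1 (chr8:64014931-64206271) lie on the same chromosome, and Prg4 lies at chr1:150449412-150466165; these 3 are on the minus strand.

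To see each gene in cells it had not helped to choose, the top 10% was taken again by the other 4 genes. Prg4 then stood at 454.1 CPM in the chosen cells and 57.6 CPM in the rest, a log2 ratio of 2.98, and 94.1% of the chosen cells were members. Clu stood at 3149 CPM against 362.8 CPM (log2 ratio 3.12), although only 69.2% of those cells were members. Tll1 had 80.9 CPM against 6.33 CPM, Cilp2 262.9 against 31.2 CPM, and Scara3 510.0 against 87.1 CPM. When the cells were chosen on a random 50% of their UMIs and measured on the remaining UMIs, Prg4 stood at 520.8 CPM against 52.5 CPM and Clu at 4108 CPM against 297.7 CPM. All 5 genes thus stayed at least 5-fold higher when the counts measured had not entered the choice. In the random split, other UMIs of the same gene still entered it. The 5 genes were chosen with earlier results of these data known, and most cells chosen again were members. These values are therefore a description and no independent support for the group.

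The score had no gap at the threshold. The lowest member had a score of 31.68 and the highest other cell 31.60 per 10000 UMIs, and within 10% of the threshold lay 128 members and 133 other cells. The median score was 52.2 in members and 1.69 in the others, and 2286 kept cells (21.1%) scored 0. The members are thus a range of a graded score, as the ranked scores below show. The threshold was fixed at 10% of cells, so the lack of a gap there cannot decide whether they belong to a separate class.

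**Figure D1:**
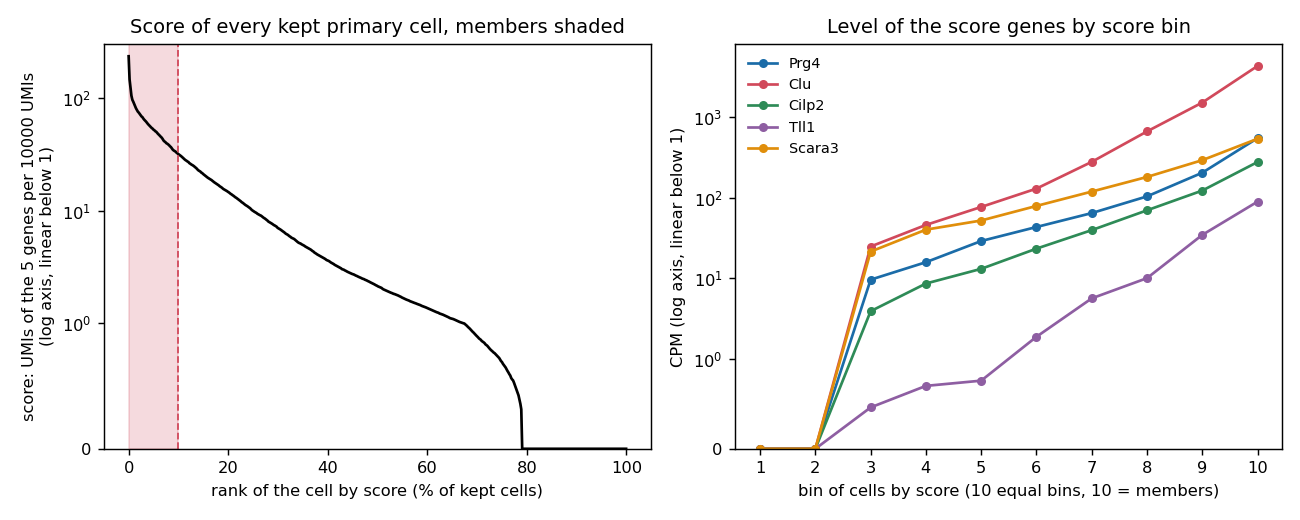
Left, score of every kept primary cell (UMIs of the 5 genes per 10000 UMIs, log axis that is linear below 1) against its rank in percent, with the top 10% shaded; right, CPM of each score gene in 10 equal bins of cells by score, bin 10 being the members. The ranked scores pass the threshold between 31.68 and 31.60 without a step, and cells of bins 1 and 2 and part of bin 3 are tied at 0.

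Across the transcriptome, 8251 genes with at least 10 CPM in members or other cells, without the score genes, were compared. Of these, 1382 were higher in members by 1.5-fold or more (16.7% of genes compared) and 492 were lower by as much (5.96%). At 2-fold, 477 were higher and 212 lower. The median log2 ratio over all 8251 genes was 0.15. With TMM scaling, which sets the bulk of genes level, every log2 ratio was lower by 0.17, and 846 genes were higher and 755 lower, so that the share of higher genes among those past 1.5-fold went from 73.7% to 52.8%. Ratios below are on the CPM scale and can be read against this shift. Counts from the gene lists below can be read against the 16.7% and 5.96% of all genes compared. A gene that reached 10 CPM in only 1 group could be called only in favour of that group.

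Among genes with at least 50 CPM in either group, those with the highest ratios included several signalling genes. Bmp3, a BMP family member that restrains BMP signalling in bone, stood at 50.5 CPM (46.0 to 55.2) in members and 3.70 CPM in the other cells, 13.6-fold higher (log2 ratio 3.77, 3.58 to 3.96). At 5000 UMIs it had a UMI in 18.6% of members, 1.60% of the other cells and 0 of the 16 endothelial barcodes. Ppargc1a, the coactivator PGC-1 alpha of mitochondrial biogenesis, had 392 CPM in members and 59.2 CPM in the others. Its median per cell was 0 in both groups, and its highest value per 10000 UMIs was 81.8 in members and 84.2 in the others. Ppargc1a was therefore carried by a subset, with a UMI in 31.6% of members and 8.12% of the other cells at 5000 UMIs.

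Spp1, which encodes osteopontin, had 241 CPM against 37.4 CPM and a UMI in 40.0% of members against 10.9% of the others. Of the phosphodiesterases that break down cyclic nucleotides, Pde7b stood at 199 CPM against 33.6 CPM and Pde10a at 367 CPM against 82.5 CPM. Nbl1, a secreted BMP antagonist, had 158 CPM against 31.6 CPM. Sema3e, a semaphorin, had 97.6 CPM against 21.0 CPM. Among transcriptional regulators, Maf stood at 167 CPM against 34.6 CPM, Runx1t1 at 64.2 CPM against 13.2 CPM and Tle5 at 52.5 CPM against 10.9 CPM. The remaining genes of the highest 15 were Sncaip, Specc1, the sulfatase gene Arsi, Gulp1 and Txnip, at 4.38-fold to 7.41-fold higher. Of the 15, only Ppargc1a and Pde10a also reached 50 CPM in the other cells, so the remaining genes could enter this list only as higher. All 15 stayed past 1.5-fold higher in each of the 17 alternatives tried, Bmp3 between log2 ratios of 3.51 and 4.10. The alternatives drew on the same library and the genes were its most extreme, so this is no independent support.

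Among genes with at least 50 CPM in either group, the lowest ratio belonged to Acta2, smooth muscle actin, with 11.6 CPM in members and 135 CPM in the other cells, 11.6-fold lower. Its highest member reached 7.06 per 10000 UMIs, against 269.1 in the other cells. Serpina3n and A2m, both protease inhibitors, stood at 9.08 against 61.9 CPM and 36.7 against 199.7 CPM. Scrg1, a gene expressed in developing cartilage, had 171 CPM in members and 702 CPM in the others, with a UMI in 40.4% and 85.3% of cells at 5000 UMIs. Tnnt3, the fast skeletal muscle troponin T, had 65.9 CPM against 314 CPM. Ppa1, an inorganic pyrophosphatase, had 95.6 CPM against 509.7 CPM. Prune2, Aoc2, Pxylp1 and Ntm completed the lowest 10 at this level of expression, at 4.41-fold to 5.77-fold lower. Of these 10, only Scrg1, Tnnt3 and Ppa1 also reached 50 CPM in members, so the remaining genes could enter this list only as lower. All 10 stayed past 1.5-fold lower in each of the 17 alternatives, which is likewise no independent support.

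**Figure D2:**
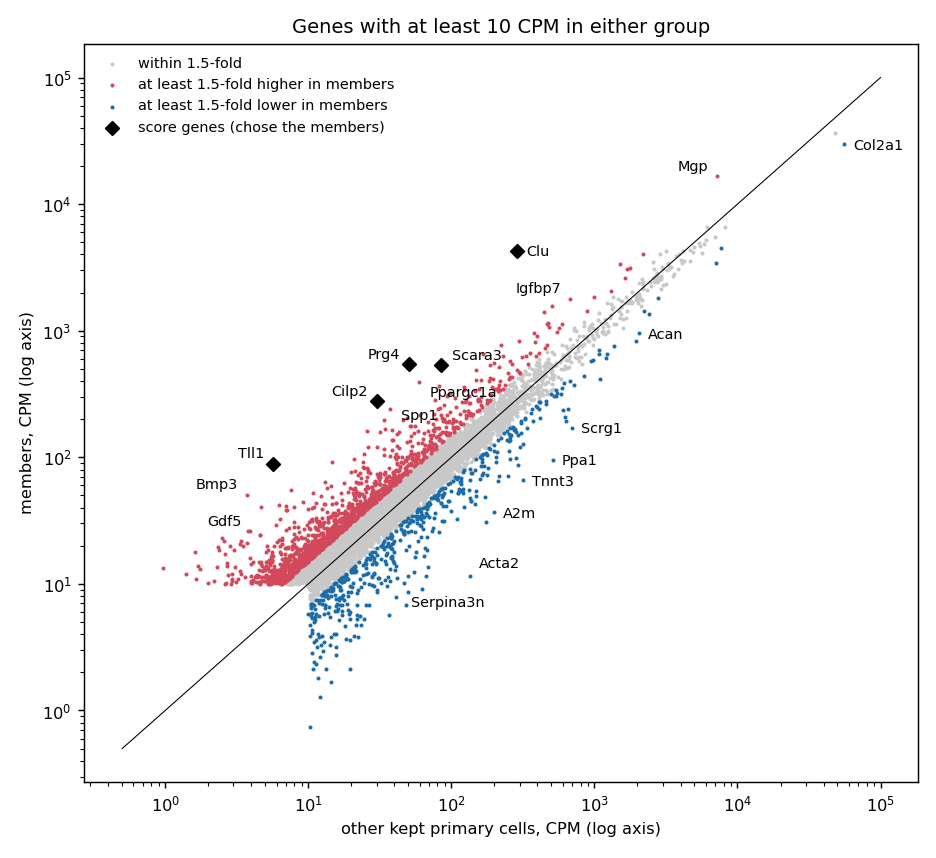
Summed level of each gene (CPM, log axes) in the 1083 members against the 9746 other kept primary cells, for genes with at least 10 CPM in either group; the line marks equal levels. Of 8251 points other than the score genes, 1382 lie past 1.5-fold on the side of members and 492 on the side of the other cells, and Bmp3 (50.5 against 3.70 CPM) and Acta2 (11.6 against 135 CPM) lie far from the line.

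Abundant genes showed smaller ratios. Over the 10829 kept cells at 5000 UMIs, the genes most correlated with the score were Igfbp7, an IGF-binding matrix protein (r = 0.53), Mgp, the matrix Gla protein that inhibits mineralisation (0.51), Prkg1, a cGMP-dependent kinase (0.51), Pam, which amidates peptides (0.50), and the transcription factor Klf2 (0.48). Igfbp7 had a median of 17.4 per 10000 UMIs in members (1.22 to 56.6) and 6.23 in the others (0 to 56.3), and Mgp 154.8 against 55.1. Mgp stood at 16667 CPM against 7246 CPM, Prkg1 at 653 against 166 CPM and Pam at 1141 against 471 CPM. The most negative correlations were those of Col2a1 (-0.54), Col9a3 (-0.54), Scrg1 (-0.52), Ucma (-0.51) and Mia (-0.51); Mia was named after its value was seen. These correlations come from 1 library at equal depth and are descriptions.

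Of the 20 cartilage core genes, 0 were higher in members by 1.5-fold or more and 8 were lower by as much, with a median log2 ratio of -0.44 against 0.15 for all genes compared. Col2a1 had a median of 260 per 10000 UMIs in members (25.6 to 906.8) and 543 in the other cells (4.72 to 1364), so the ranges overlapped, while the upper quartile of members (352) lay below the lower quartile of the others (417). In sums, Col2a1 stood at 29614 CPM against 55748 CPM. Acan had 955 CPM against 2053 CPM, and Ucma, a matrix protein of immature chondrocytes, 3407 against 7110 CPM. Sox9, the transcription factor that directs chondrocyte fate, had 762 CPM against 1371 CPM, while its partners Sox5 and Sox6 had 764 against 597 CPM and 1019 against 718 CPM, both within 1.5-fold. Col9a3, Col27a1, Snorc and Matn1 were the other genes past 1.5-fold lower, Matn1 at only 6.23 CPM against 19.1 CPM. Comp and Matn3 had log2 ratios of 0.48 and 0.53. With TMM scaling, 10 of the 20 genes were past 1.5-fold lower.

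The small leucine-rich proteoglycans, which coat and space collagen fibrils, were mixed. Of 10 compared, 4 were at least 1.5-fold higher in members and 1 lower (2 with TMM scaling), with a median log2 ratio of 0.34. Of all genes compared, 16.7% were higher and 5.96% lower. Fmod had a median of 29.6 per 10000 UMIs in members and 15.8 in the others, and 3059 CPM against 1683 CPM. Prelp had 551 against 198 CPM, Ogn 293 against 105 CPM and Ecm2 339 against 123 CPM. Epyc, a proteoglycan of growth plate cartilage, was the lower member, with 415 CPM against 1097 CPM. Bgn, Dcn, Lum, Omd and Aspn were within 1.5-fold.

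The list of articular surface genes, apart from the score genes, held 12 genes found in the files, of which 9 were compared. Of these 9, 5 were at least 1.5-fold higher and 1 lower, against 16.7% and 5.96% of all genes compared, with a median log2 ratio of 0.59. Gdf5, Abi3bp and Dkk3 reached 10 CPM in members only, so they could not have been called lower. Gdf5, a growth factor of the joint interzone, had 26.0 CPM in members and 3.94 CPM in the others, and a UMI in 7.94% and 1.69% of cells at 5000 UMIs. Erg, a transcription factor of articular cartilage, had 279 CPM against 154 CPM. At 5000 UMIs, Erg also had a UMI in 10 of the 16 endothelial barcodes, a cell type that expresses it. Abi3bp had 15.9 against 3.92 CPM and Dkk3 29.2 against 9.76 CPM. Tgfbr2 was just past the 1.5-fold limit at 64.7 against 42.9 CPM and was within it with TMM scaling. Ecrg4 went the other way, with 702 CPM against 1082 CPM. Summed over the list, members had 1256 CPM and the others 1412 CPM, because Ecrg4 dominates the sum. Of the genes of lining fibroblasts, Has1 stood at 23.3 against 20.6 CPM and Pdpn at 35.8 against 23.6 CPM.

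Zonal genes of cartilage showed no common direction. Of 6 resting zone genes, Wif1, a secreted Wnt inhibitor, was higher at 810 CPM against 383 CPM, as was Apoe at 84.6 against 24.0 CPM, while Cytl1, Gas1, Nt5e and Clec3a were within 1.5-fold. Of 7 prehypertrophic and hypertrophic genes, Spp1 and Runx2 (171 against 102 CPM) were higher and Fgfr3 (100.1 against 158 CPM) lower, Runx2 falling within 1.5-fold with TMM scaling. Ptch1, Runx3, Mef2c and Pth1r were within 1.5-fold.

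Dividing cells were few among the members. With at least 5 UMIs of the G2M list at 5000 UMIs, 2 members (0.185%, 0.0224% to 0.666%) counted as dividing, against 176 of the other cells (1.81%, 1.55% to 2.09%). Of 18 G2M genes listed, 6 were compared, and all 6 were at least 1.5-fold lower, with a median log2 ratio of -2.02. Mki67, for example, stood at 0.739 against 10.3 CPM and Top2a at 1.27 against 12.1 CPM. Of the 6, only Cenpa reached 10 CPM in members, so the rest could not have been called higher. At 5000 UMIs, a UMI of any listed G2M gene was found in 13.9% of members and 12.3% of the other cells. Without the dividing cells, Birc5 and Ube2c had log2 ratios of -0.08 and -0.04, and Cdk1 and Cenpa 0.10 and 0.70, while Mki67 (-1.27) and Top2a (-0.96) stayed past 1.5-fold lower. The 7 S phase genes were all within 1.5-fold, Pcna at 68.0 against 56.7 CPM.

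Some genes that mark cells of the perichondrium and of tendon were higher in members. Of 6 perichondrial fibroblast genes, 5 were at least 1.5-fold higher and 1 lower, against 16.7% and 5.96% of all genes compared. The list had a median log2 ratio of 1.02 and a summed level of 1325 CPM against 634 CPM. The fibrillar collagen genes Col1a2 and Col3a1 stood at 1067 against 481 CPM and 147 against 52.4 CPM, and Postn, which encodes periostin, at 43.4 against 15.7 CPM. Ly6a was lower, at 8.66 against 49.7 CPM. Col1a1 stood at 33.0 against 17.9 CPM, but it was capped by the cell filter. Without that cap, Col1a1, Postn and Tnmd, a tenocyte gene, were within 1.5-fold, with log2 ratios of 0.03, 0.30 and 0.56.

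Of 5 tenocyte genes, 4 were at least 1.5-fold higher, against 16.7% of all genes compared. The list had a median log2 ratio of 1.29 and a summed level of 639 CPM against 262 CPM. Tnmd, Mkx and Col14a1 reached 10 CPM in members only, so they could not have been called lower. The tendon transcription factors Scx and Mkx stood at 50.6 against 20.7 CPM and 27.4 against 7.37 CPM, Tnmd, a membrane protein of tendon, at 28.3 against 8.52 CPM, and Col12a1 at 519 against 216 CPM, while Col14a1 was within 1.5-fold. At 5000 UMIs, the tenocyte list summed to a median of 3 UMIs in members (0 to 23) and 1 in the others (0 to 22), and the perichondrial list to 5 (0 to 75) and 2 (0 to 78). Of the 13 perichondrial genes listed, 1 was at 0 in members, and none of the 6 tenocyte genes was. Whether such cells or their RNA contribute to the other differences was not tested.

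Several muscle genes were lower. Of 6 smooth muscle and pericyte genes, Acta2, Tagln (7.81 against 40.8 CPM) and Myl9 were at least 1.5-fold lower, and Tpm2 was higher at 28.3 against 11.1 CPM, while Mcam and Cspg4 were within 1.5-fold, with a median log2 ratio of -0.69. Of 8 skeletal muscle genes listed, only Acta1 and Tnnt3 were compared, and both were lower. Acta1, Tagln, Myl9 and Mcam reached 10 CPM in the other cells only, so they could not have been called higher.

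**Figure D3:**
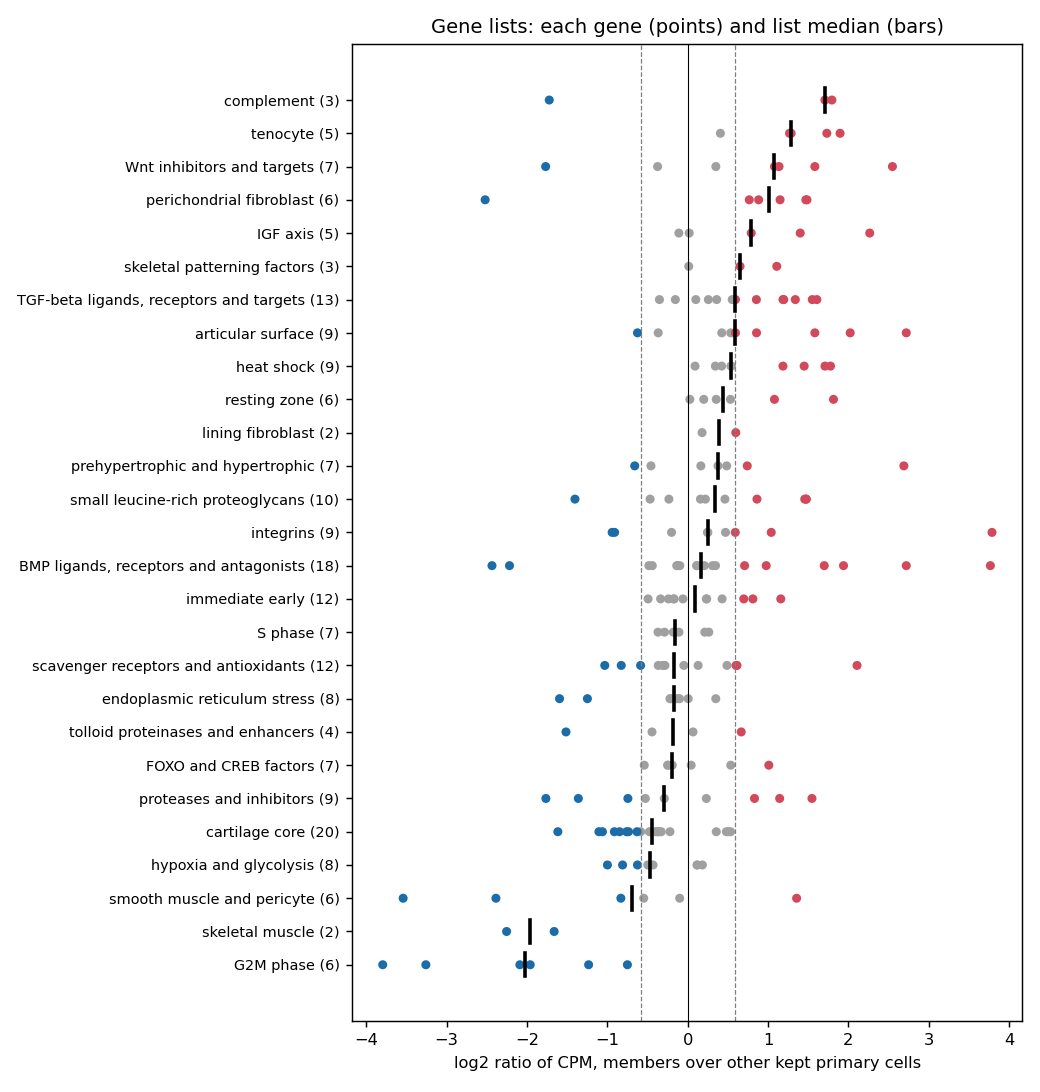
Log2 ratio of CPM in members over other kept primary cells for each gene (points) of the lists with at least 2 genes compared, with the list median (black bar), the number of genes in brackets and dashed lines at 1.5-fold. Medians run from 1.71 for 3 complement genes to -2.02 for 6 G2M genes, and cartilage core genes lie at a median of -0.44. Most genes behind both extremes reached 10 CPM in a single group, so they could be called only in favour of that group.

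Genes of secreted signalling pathways were spread on both sides. Wnt proteins act on cartilage through beta-catenin and are held back by secreted inhibitors. Of 7 Wnt inhibitors and targets, 4 were at least 1.5-fold higher and 1 lower, against 16.7% and 5.96% of all genes compared. The median log2 ratio was 1.08. Notum, an enzyme that inactivates Wnt proteins, stood at 40.9 CPM against 6.98 CPM, and Nkd1, a target that dampens the pathway, at 57.1 against 26.0 CPM. Frzb, another secreted inhibitor, was lower at 42.6 against 145 CPM. Sfrp1 and Lef1 were within 1.5-fold.

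Of 13 TGF-beta genes, 7 were at least 1.5-fold higher and 0 lower, against 16.7% and 5.96% of all genes compared, with a median log2 ratio of 0.59. Among the ligands, Tgfb2 stood at 116 against 64.1 CPM and Tgfb3 at 54.5 against 21.5 CPM, while Tgfb1 was within 1.5-fold. The coreceptor Tgfbr3 had 357 CPM against 122 CPM. The latent binding proteins Ltbp2 and Ltbp4 stood at 14.3 against 4.67 CPM and 50.9 against 22.4 CPM. The targets Smad7 and Ccn2 were within 1.5-fold. With TMM scaling 6 of the 13 were higher.

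Of 18 BMP genes, 6 were higher and 2 lower, with a median log2 ratio of 0.16, close to that of all genes; with TMM scaling 5 were higher and 4 lower. All 6 higher genes encoded ligands of this family. Beside Bmp3 and Gdf5, Bmp2 stood at 310 CPM against 95.5 CPM, Bmp7 at 43.7 against 11.4 CPM, Bmp5 at 141 against 71.8 CPM and Bmp4 at 28.1 against 17.2 CPM. Bmp6 was within 1.5-fold at 284 against 263 CPM. The ligand Gdf10 and the antagonist Nog were lower, at 5.28 against 24.5 CPM and 3.59 against 19.4 CPM. The receptors Bmpr1a, Bmpr1b and Bmpr2 and the targets Id1, Id2 and Id3 were within 1.5-fold. With 5000 to 10000 UMIs per cell, Bmp4 had a log2 ratio of 0.26.

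Tll1 belongs to the tolloid proteinases, of which Bmp1 stood at 58.8 against 80.0 CPM. The enhancers of procollagen cleavage went apart, Pcolce at 66.4 against 41.8 CPM, which is within 1.5-fold with TMM scaling, and Pcolce2 at 98.5 against 282 CPM. Of 5 genes of the IGF axis, Igfbp4 (44.3 against 9.22 CPM), Igfbp7 and Igf1r (348 against 201 CPM) were higher and 0 were lower, with a median log2 ratio of 0.79. Of 9 integrin genes, Itga10, Itga11 and Itgb8 were higher, Itgb8 at 13.4 against 0.971 CPM, and Itga5 and Itga6 lower, Itga10 falling within 1.5-fold with TMM scaling. Of 3 patterning factors compared, Prrx1 (log2 ratio 1.11) and Foxc1 were higher and Foxc2 was within 1.5-fold, Foxc1 also being within it with TMM scaling.

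Matrix proteases and their inhibitors were divided. Of 9 compared, Mmp14 (140 against 63.3 CPM), Ctsk (68.1 against 23.3 CPM) and Timp2 (971 against 546 CPM) were past 1.5-fold higher, and Timp1 (86.6 against 294 CPM), Timp4 and Adamts9 were past 1.5-fold lower. Of 11 complement genes listed, 3 were compared. C1ra and C1s1 were higher, at 42.4 against 13.0 CPM and 19.9 against 5.75 CPM, and C4b was lower at 5.81 against 19.2 CPM. C1s1 reached 10 CPM in members only and C4b in the others only, so each could be called only in that direction.

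Scara3 was placed with scavenger receptor and antioxidant genes, of which 12 were compared. Gpx3, a secreted glutathione peroxidase, stood at 197 CPM against 45.7 CPM, and Gpx1 and Cat, which encodes catalase, were also past 1.5-fold higher. Hmox1 (66.3 against 136 CPM), Nqo1 and Mt2 were lower. The median log2 ratio was -0.17, and with TMM scaling only Gpx3 was past 1.5-fold higher. Of 7 FOXO and CREB family factors, Foxo3 was higher, at 269 CPM against 134 CPM, and 0 were lower, although with TMM scaling Foxo1 was past 1.5-fold lower.

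Stress genes differed too. Of 9 heat shock genes, 4 were at least 1.5-fold higher and 0 lower, against 16.7% and 5.96% of all genes compared. The list had a median log2 ratio of 0.54 and a summed level of 5403 CPM against 3259 CPM. Hspa1a had a median of 3.37 per 10000 UMIs in members (0 to 96.8) and 0 in the others (0 to 98.2), and 767 CPM against 223 CPM. Hspa1b, whose reads can be split with its near-identical copy Hspa1a, had 320 CPM against 97.9 CPM. Hsph1 had 407 against 149 CPM and Hspb1 335 against 147 CPM. Members were over-represented among cells high in this list, since 275 (25.4%, 22.8% to 28.1%) were in its top 10%. Those high cells were also shallow, with a median of 8042 UMIs against 10455 in all kept cells, and the part of depth was not tested. Leaving that top 10% out of all cells and choosing members again gave 1311 genes higher and 479 lower, near the 1382 and 492 above.

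Of 12 immediate early genes, which respond rapidly to stimuli, 3 were higher and 0 lower, or 2 and 1 with TMM scaling. These were Klf2 (3392 against 1519 CPM), Jun (3110 against 1772 CPM) and Jund, while Fos, Junb, Egr1 and Atf3 were within 1.5-fold. Of 8 hypoxia and glycolysis genes, Slc2a1 (169 against 338 CPM), Ldha (262 against 460 CPM) and Pgk1 were lower and 0 were higher, and with TMM scaling 5 were lower. Of 8 genes of endoplasmic reticulum stress, Chac1 (70.8 against 214 CPM) and Trib3 were lower and Hspa5 was within 1.5-fold.

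The differences followed the score beyond the threshold. In bins 5, 9 and 10 of cells by score, Bmp3 stood at 1.04, 18.4 and 50.5 CPM, Gdf5 at 1.59, 12.7 and 26.0 CPM, and Spp1 at 27.6, 111 and 241 CPM. Ppargc1a went from 20.4 to 206 and 392 CPM. Acta2 stood at 155, 42.6 and 11.6 CPM, and Col2a1 at 59080, 41520 and 29610 CPM. Sox5 was higher in each bin than in the bin before, from 530.3 CPM in bin 1 to 764 CPM in members. Wif1 stood at 714 CPM in bin 9 and 810 CPM in members. The members thus lie at the end of a gradient in which bin 9, just below them, already differs from bin 5 in the same direction for each of the genes plotted. Bins 1 and 2 are ordered arbitrarily, since their cells share a score of 0, and depth differs between bins, with a median of 9001 UMIs in bin 9.

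**Figure D4:**
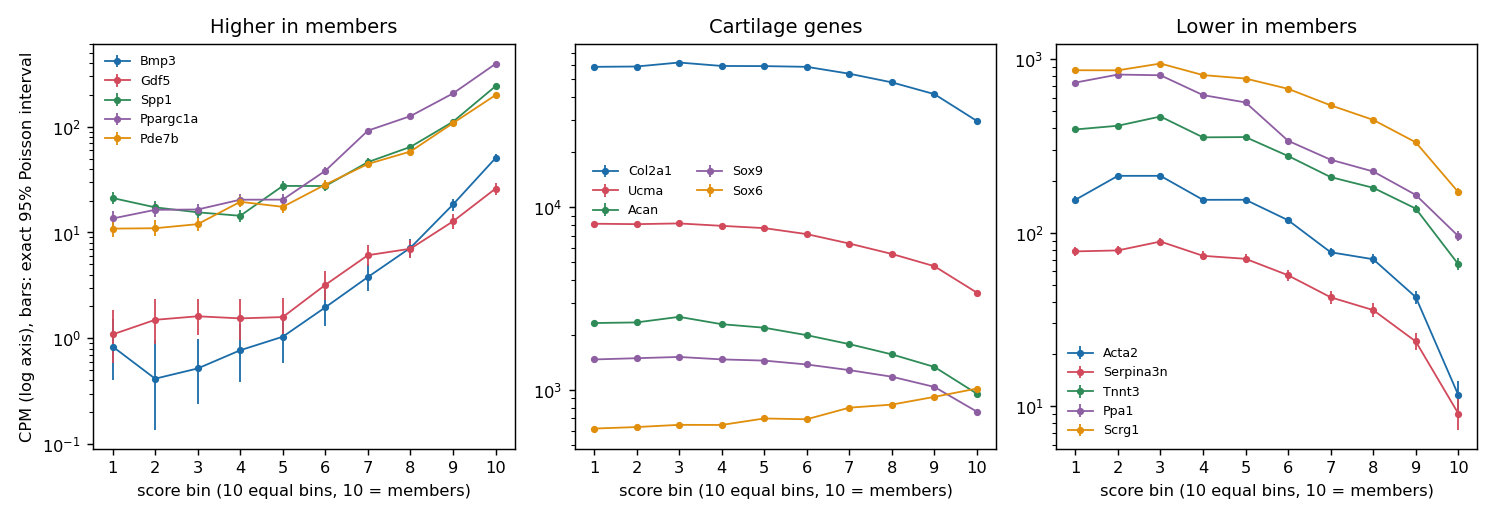
CPM (log axis) of 15 genes in 10 equal bins of kept primary cells by score, bin 10 being the members, with exact 95% Poisson intervals. Bmp3 goes from 1.04 CPM in bin 5 to 50.5 CPM in bin 10, Col2a1 from 59080 to 29610 CPM and Acta2 from 155 to 11.6 CPM.

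The cells were clustered without the 5 score genes. One of 9 clusters, with 2511 cells (23.2% of kept cells), held 995 members, or 91.9% (90.1% to 93.4%), and members made up 39.6% of it. Its leading genes were Ppargc1a, Specc1, Pde7b, Arsi and Spp1, all among the 15 genes above. The other 88 members were spread over 6 clusters, 33 of them in a cluster led by Cytl1, Trf and Foxc2 and 24 in one led by Cacnb2 and Lars2. A cluster of 2067 cells led by Acta2, Aoc2 and Ppa1 held 1 member. Among the 20 nearest neighbours of a member, 56.3% were members on average, against 4.69% for the other cells. The share in the main cluster depended on how finely cells were divided, with 52.1% at resolution 1.0, where the cluster held 9.27% of kept cells, and 94.7% at resolution 0.3.

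Members were also set against the top 10% of cells by other gene scores, of which they would hold 10% if the scores were unrelated to each other and to depth. Median depths were 7516 UMIs in members, 7771 in the Cytl1 group, 8911 in the Runx3 group, 9787 in the Trf group and 13600 in the Acta2 group. The part of depth in these overlaps was not tested. They shared 195 cells (18.0%) with a score of Cytl1, Wif1 and Prelp and 165 (15.2%) with a score of Runx3, Wnt5b and Ptch1. Only 19 (1.75%) were in the top 10% for Trf, Fam43a, Klf5 and Foxc2, and 9 (0.831%) in that for Acta2, Grem1 and Eln. Cells high in the Acta2 score had 43.6 CPM of Prg4 and 165 CPM of Clu, and cells high in the Cytl1 score 240.1 CPM and 1043 CPM.

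**Figure D5:**
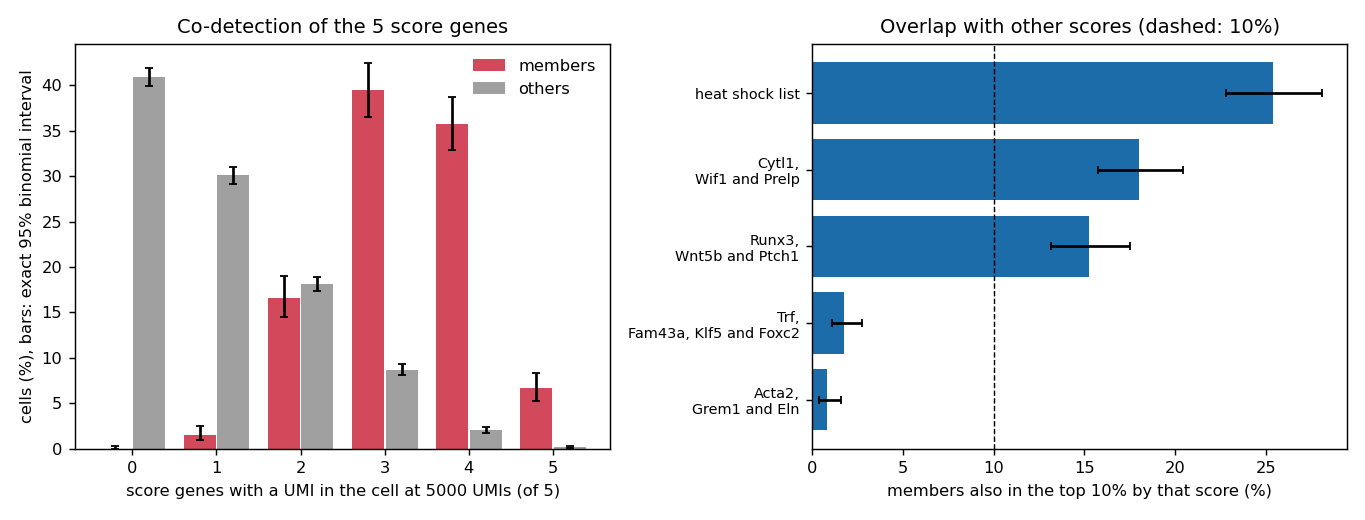
Left, share of members and of other kept primary cells with UMIs of 0 to 5 of the score genes at 5000 UMIs per cell; right, share of the 1083 members that are also in the top 10% of cells by another score, both in percent with exact 95% binomial intervals. Members most often carried 3 (39.4%) or 4 (35.7%) of the 5 genes, and 25.4% were in the top 10% for heat shock genes against 0.831% for the Acta2 score.

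Prg4 divided the members, since 651 had a Prg4 UMI at 5000 UMIs and 432 did not, with median depths of 7784 and 7230 UMIs. Of 8278 genes compared, 142 (1.72%) were higher by 1.5-fold or more and 81 (0.978%) lower by as much in members with Prg4. Wif1 stood at 954 CPM with Prg4 and 570 CPM without, Pde7b at 243 and 126 CPM, the chemokine receptor Ackr3 at 90.2 and 51.1 CPM, and Gdf5 at 31.0 and 17.7 CPM. Lower with Prg4 were Fbln7, a fibulin (28.6 and 60.7 CPM), the lectin Clec3a (91.0 and 162 CPM) and Postn (34.3 and 58.4 CPM). Of the other score genes, Tll1 was higher with Prg4, at 103 and 66.6 CPM (1.54-fold). The remaining score genes and Col2a1 were within 1.5-fold, with Clu at 4198 and 4399 CPM, Scara3 at 540 and 529 CPM, Cilp2 at 284 and 262 CPM, and Col2a1 at 30030 and 28920 CPM. Ackr3, Fbln7 and the division itself were chosen after the values had been seen.

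Outside the kept primary cells, the score genes had other proportions. The 130 primary barcodes left out for Col1a1 had 321 CPM of Cilp2, above the 276 CPM of members, but 103 CPM of Prg4, 761 CPM of Clu, 168 CPM of Scara3 and 7.51 CPM of Tll1. Of these 130, 16 (12.3%) passed the score threshold of members. In the cultured library, 4543 barcodes passed the same filter without the Col1a1 cap, with a median of 66410 UMIs. Their levels were 16.9 CPM for Prg4, 31.3 CPM for Clu, 0.286 CPM for Cilp2, 27.9 CPM for Tll1 and 24.4 CPM for Scara3. Of the 5 genes, Tll1 alone was above its 11.6 CPM in all kept primary cells. With 0 of 4543 cultured cells past the threshold, a share of up to 0.0660% is allowed by a floor of 3 cells, and up to 0.0812% by the exact binomial interval. At 5000 UMIs, Prg4 had a UMI in 6.52% of cultured cells, 19.6% of all kept primary cells and 60.1% of members. For Tll1 these shares were 8.85%, 3.07% and 16.4%. The members were chosen on both genes, so their higher shares are what the rule selected. Culture, animals and sequencing run cannot be told apart between these 2 libraries.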

How the data were processed

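The authors had processed the reads with Cell Ranger 7.0.0 and aligned them to GRCm38, per the file headers and the study's methods. The annotation release was not given in the sources used here. What was deposited for the 1 primary and the 1 cultured library were unnormalised counts of UMIs for each gene in each barcode. Groups came from the treatment labels. The members, the 36 gene lists and the comparisons were chosen with earlier results of these data known.

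Counts were summed over members and over the other kept cells and scaled to CPM. Genes with at least 10 CPM in either group were compared. A log2 ratio is members over others, with counts under 3 raised to 3, and 1.5-fold was the limit. Sums have exact Poisson, shares exact binomial (Clopper-Pearson) and ratios exact conditional intervals at 95%. Shares of cells with a UMI were taken after thinning each cell to 5000 UMIs without replacement. A dividing cell had at least 5 UMIs of G2M genes after thinning, and an endothelial barcode at least 20 UMIs of endothelial genes. The genes named are the score genes, the 15 highest and 10 lowest by log2 ratio with at least 50 CPM in either group without mitochondrial and ribosomal protein genes, the genes of the lists with at least 10 CPM, the 5 leading genes of the members' main cluster and the 5 genes most correlated with the score; others are marked in the text. Clusters were made with scanpy 1.11.5 and leidenalg 0.10.2 (2000 variable genes without the score genes, 10 components, 20 neighbours, resolution 0.5). TMM factors came from edgeR 4.0.16, and no count model was fitted. Other steps used numpy 2.4.6, scipy 1.17.1 and pandas 2.3.3. Coordinates are those of GENCODE M21. The comparison was tested on simulated data. Alternatives changed the share of cells chosen, the score, the cell filter, the scaling, the CPM minimum and the clustering.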

Additional observations from a re-analysis of the deposited data

How the results depend on the processing

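Of the 130 named genes past 1.5-fold, 98 stayed past it in the same direction under all 17 settings. Each setting took between 0 and 18 of them within 1.5-fold, the most with the score as a mean rank of the 5 genes. All settings drew on the same library, so this is no independent support. With at least 10000 UMIs per cell, 889 genes were higher. Genes of at least 1 CPM gave 2539 higher and 1207 lower, and TMM scaling 846 and 755. Leaving each gene out of the score put Prg4 at 454.1 CPM, Clu at 3149 CPM, Cilp2 at 262.9 CPM, Tll1 at 80.9 CPM and Scara3 at 510.0 CPM in the chosen cells. The share of members in their main cluster was 94.7% at resolution 0.3, 52.1% at resolution 1.0 and 74.5% with 20 components. Log2 ratios turned for Cdk1 (0.10) and Cenpa (0.70) without dividing cells, and for Cenpa (0.037) in cells of 5000 to 10000 UMIs; outside the first setting, the cause was not tested. The settings of 5000 to 10000 UMIs, of a score without Clu and without cells high in heat shock genes were chosen after seeing the data. The score as mean rank shared 63.0% of its cells with the members, and the score without Clu 69.2%. With 1 library per condition, differences between animals or preparations could not be estimated, Tll1 and Gdf5 rest on few UMIs per cell, and members were shallower than the other cells. No paired analysis was possible because no result comes from a test between libraries and each group has 1 library.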
